A study of Mus musculus with 13 samples.

Results

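TRAJ22 is one of the joining (J) segments of the mouse T cell receptor α (TCRα) locus. Its members were the functional clonotypes called with it, 3161 of 78521 functional clonotypes in 13 TCRα libraries. A clonotype was a distinct set of V segment, J segment and CDR3 nucleotide sequence, CDR3 being the junction loop that V, J and inserted bases build together, and it was functional where its CDR3 translated without a stop codon or frameshift. TRAJ22 was chosen by measured values of these same libraries, the sharing of its CDR3 sequences between samples, the evenness of their shares and its slightly lower use at 7 than at 1.5 months, and these are described below without a test.

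The libraries came from rescued Treg cells, CD4+ T cells whose Foxp3 had been restored, sorted as TCRβ+CD4+GFP+Thy1.1- cells from pooled spleen and lymph nodes of male C57BL/6 mice. All mice carried the Foxp3LSL allele, which a removable stop cassette silenced, and the Cd4creERT2 allele, which expresses an inducible Cre from the Cd4 locus rather than from a gene particular to Treg cells. Every mouse received a single dose of the Cre-inducing drug 4-hydroxytamoxifen (4-OHT) at 14 days of age, so no untreated or unrescued group was available as a background. Cells were taken 1.5 months (n = 2, age 8 weeks), 3 months (n = 4, 3.5 months), 5 months (n = 2, 5.5 months) or 7 months later (n = 5, 7.5 months). Time after treatment and age of the mouse therefore cannot be told apart. TCRα sequences alone do not hold the genes that define a Treg cell, so the label could not be checked here. The labels do not say that replicates were separate mice, and p-values measure the spread between these samples.

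Libraries held 509818 to 936831 counts and 4828 to 7998 functional clonotypes, of which 190 to 333 used TRAJ22. A count of 3, taken as the floor of detection, was 0.00034% to 0.00063% of a library's functional counts. Among TRAJ22 clonotypes, the libraries of 3 months replicate 4 and 5 months replicate 1 shared 26 (5.62% of their union), and those of 1.5 months replicate 1 and 3 months replicate 4 shared 32 (5.53%), against a median of 2.27% over 78 pairs. Of the TRAJ22 clonotypes, 88 (2.78%) had a share at least 100 times higher in another library, against 3.15% of all functional clonotypes. The tests and the measure of evenness were repeated without them. The other values on sharing between samples and those from matching to germline were not.

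In the thymus, the TCRα locus joins 1 of many V segments to 1 of many J segments, and the bases between them are trimmed and filled in at random. The first joins use J segments near the V cluster, and later rounds on the same chromosome reach J segments farther away together with V segments farther upstream. The J segment encodes the end of CDR3, so clonotypes that share a J share that end.

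TRAJ22 occupies chr14:54197248-54197307 on the plus strand of GRCm38, between TRAJ23 (chr14:54196081-54196140) and TRAJ21 (chr14:54198790-54198846), and is a coding J exon. Its 60 germline bases are shown because nearly all that follows turns on them, and the 29 bases in capitals are those that lie in CDR3.
TRAJ22: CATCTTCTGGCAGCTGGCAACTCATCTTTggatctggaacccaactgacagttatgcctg
Read from the third base, the capitals translate to SSGSWQLIF, the CDR3 end by which these clonotypes are recognised. The CDR3 parts of its neighbours are of like length but different sequence, with 26 bases in TRAJ21 and 29 in TRAJ23.
TRAJ21: tgtctaattacaacgtgctttacttc
TRAJ23: tgaattataaccaggggaagcttatcttt

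TRAJ22 made up 4.01% ± 0.294 (SD, n = 13) of functional clonotypes and 4.81% ± 0.729 of functional counts. At 1.5 months it held 4.15% and 4.33% of clonotypes in replicates 1 and 2. The 4 samples at 3 months held 4.68%, 3.96%, 3.89% and 4.19%, and the pair at 5 months 3.90% and 3.94%. At 7 months the values were 4.18%, 3.60%, 3.804%, 3.83% and 3.65%. The mean at 7 months, 3.82% ± 0.227 (SD, n = 5), was 0.423 percentage points below the 4.24% ± 0.123 (SD, n = 2) at 1.5 months, with 1 of the 5 later samples above the lower of the early ones. This difference was among the values that chose the gene and was not tested.

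By counts, the 2 samples at 1.5 months held 4.97% and 5.75%, with a mean of 5.36% ± 0.548 (SD). The 4 samples at 3 months held 4.83%, 4.50%, 4.87% and 4.16%, which averaged 4.59% ± 0.330. The pair at 5 months held 4.74% and 4.26%, which averaged 4.50% ± 0.344. For the 5 samples at 7 months the mean was 4.88% ± 1.07, so the groups overlapped. The 7-month values were 4.44%, 4.78%, 4.95%, 6.59% and 3.66%, the highest and the lowest of all 13 libraries both falling in that group. The 6.59% of replicate 4 became 4.77% when its largest TRAJ22 clonotype was left out.

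**Figure D1:**
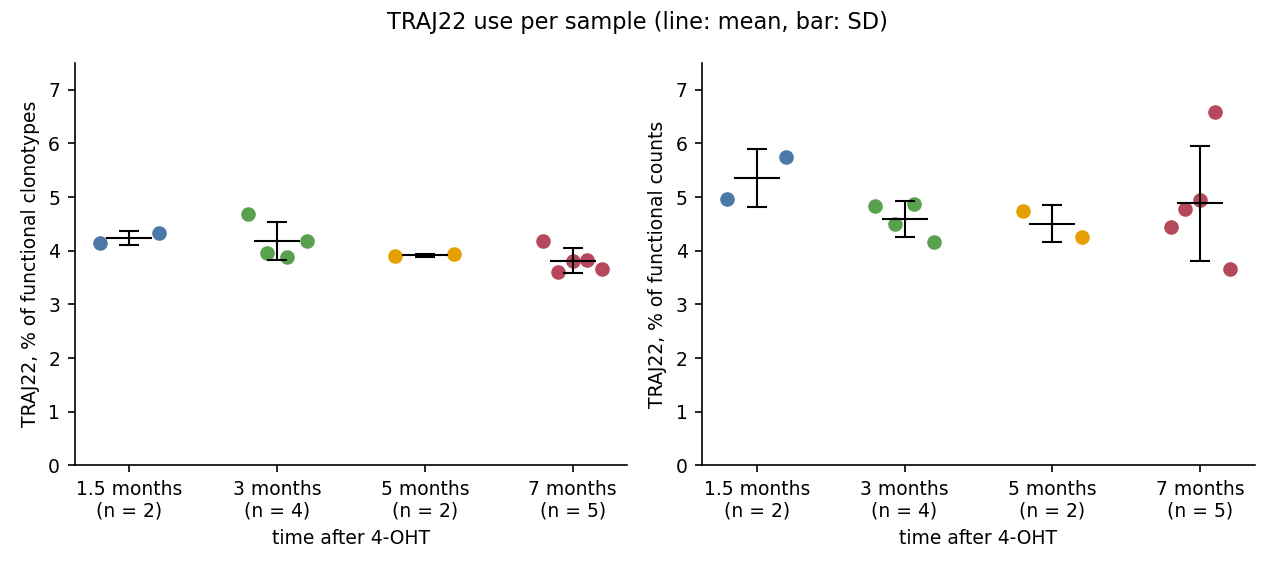
TRAJ22 as a percentage of functional clonotypes (left) and of functional counts (right) against time after 4-OHT. Points are samples, horizontal lines group means and bars the SD. The clonotype share runs from 3.60% to 4.68% over the 13 samples, and the count share is most spread at 7 months, from 3.66% to 6.59%.

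Between 3 and 5 months, which the choice of the gene had not compared, the fitted difference was small. The log2 fold change of the TRAJ22 clonotype share at 5 months against 3 months was -0.11 (SE 0.0950, edgeR quasi-likelihood test, adjusted p = 0.943). None of the 43 J genes tested passed an adjusted p of 0.05 (0% called), 1 (2.33%) had an unadjusted p under 0.05, and DESeq2 also called 0.

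By mean share of clonotypes TRAJ22 stood at the seventh place of the 43 J genes with at least 100 clonotypes, behind TRAJ15 (5.70% ± 0.593), TRAJ21 (5.43% ± 0.330), TRAJ31 (5.43% ± 0.250), TRAJ23 (4.53% ± 0.281), TRAJ13 (4.20% ± 0.431) and TRAJ12 (4.02% ± 0.265, all SD, n = 13). TRAJ15, TRAJ21 and TRAJ31 were above TRAJ22 in all 13 samples and TRAJ23 in 12, while TRAJ12, TRAJ13 and the next gene, TRAJ27 (3.99% ± 0.260), did not differ from it beyond the spread between samples. By share of counts TRAJ22 was at rank 3, after TRAJ31 (5.67%) and TRAJ12 (5.09%) and almost level with TRAJ23 (4.79%), and the largest TRAJ22 clonotype of 7 months replicate 4 is in that value.

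Several of the higher J genes held many near-copies of other clonotypes, which bears on every share of clonotypes given here. A clonotype was counted as such a variant where its CDR3 had G for T at 1 base of the J part of a clonotype of the same sample and J gene with more than 2 times its counts. These made up 42.9% of TRAJ13, 37.8% of TRAJ21, 36.5% of TRAJ15 and 54.8% of TRAJ35 clonotypes, but 1.66% of TRAJ23 and 0.854% of TRAJ22 clonotypes (27 of 3161), and 8.66% of all functional clonotypes. Their median count was 7 in TRAJ21 and 8 in TRAJ15. What they are was not tested. With them left out, TRAJ22 made up 4.36% ± 0.325 (SD, n = 13) of functional clonotypes, with means of 4.60% ± 0.163 in the 2 samples at 1.5 months and 4.14% ± 0.277 in the 5 at 7 months, and with 3134 clonotypes it was at rank 3 of the 43 J genes, after TRAJ31 (4039) and TRAJ23 (3486). The tests of V partners, use and the 5 within-sample measures were repeated without these variants. Calls of the main comparison that were lost are given with both values. Sharing between samples and matching to germline were not repeated without them. The rule did not take in every such form, as 117 TRAJ22 clonotypes had G for T at the last base of CDR3. Any mismatch in the J part was found in 6.90% of TRAJ22, 5.08% of TRAJ23 and 1.98% of TRAJ31 clonotypes. Shares and ranks given without the variants can therefore still hold such clonotypes.

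Non-functional rearrangements, which hold a stop codon or frameshift and cannot make a receptor, served as the comparison for use in the functional repertoire. TRAJ22 was called in 384 of them, 17 to 49 per sample, 352 of which were out of frame. Their TRAJ22 share was 3.25% ± 0.685 (SD, n = 13), against 4.01% among functional clonotypes. The fitted log2 fold change was 0.12 (SE 0.0908, adjusted p = 0.260, edgeR), while 21 of the 43 J genes tested (48.8%) passed, 12 of them higher (27.9%) and 9 lower (20.9%), and 22 (51.2%) had an unadjusted p under 0.05. Scaled by library totals alone, the fold change was 0.31 (adjusted p = 0.00148), but that scaling also moved the median of all J genes from 0.05 to 0.24, and TRAJ22 lay 0.07 above the median under either scaling. It also moved the calls from 12 higher and 9 lower to 22 higher and 8 lower.

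TRAJ22 was joined to V families from nearly the whole locus but almost never to those nearest the J cluster. The families with the most TRAJ22 clonotypes were TRAV7 with 665 (20.9% ± 3.38, SD, n = 13, against 18.8% ± 0.732 with other J genes), TRAV14 with 486 (15.5% ± 2.98 against 15.01% ± 0.448) and TRAV12 with 354 (11.04% ± 1.61 against 11.5% ± 0.497). Neither TRAV14 (log2 fold change 0.04, adjusted p = 0.680) nor TRAV12 (-0.05, adjusted p = 0.660) passed the edgeR test, which compared TRAJ22 with all other J genes within each sample. By summed counts in place of clonotypes TRAV14 was at 0.56. Those counts hold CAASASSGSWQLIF, described below, 74.8% of whose counts used TRAV14 and whose evenness was among the values that chose TRAJ22. They also hold the largest TRAJ22 clonotype, with 9093 counts in 7 months replicate 4, so no p-value is given. Of 18 families tested, 11 passed (61.1%), 4 of them higher (22.2%) and 7 lower (38.9%), and 12 (66.7%) had an unadjusted p under 0.05. The 7 lower include TRAV11, TRAV17, TRAV19 and TRAV21, which passed the filter on low numbers only through other J genes.

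Among the 4 families lowest with TRAJ22, TRAV21, TRAV17 and TRAV19 lie at the J-proximal end of the V cluster, and TRAV11 does not. TRAV21, at chr14:53875984-53876752, was found with TRAJ22 in 1 clonotype where 36.8 would match its share with other J genes. The ratio was 0.0272, with an exact 95% counting interval of 0.000688 to 0.151 (log2 fold change -5.03, SE 0.607). Such intervals pool the clonotypes of the 13 samples and leave out the spread between samples. For TRAV17, at chr14:53806639-53807115, 2 clonotypes stood against 33.1 (ratio 0.0604, 0.00731 to 0.218, log2 fold change -3.96, SE 0.530). TRAV19, which lies between them, gave 5 against 28.3 (log2 fold change -2.47, SE 0.428). All 3 passed the filter on low numbers only through their clonotypes with other J genes, so no p-value is given for them. In each of the 13 samples all 3 families took a smaller share with TRAJ22 than with other J genes, and TRAV21 was absent from TRAJ22 in 12 samples, TRAV17 in 11 and TRAV19 in 10.

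The scarce families TRAV18, TRAV20 and TRAV23 from the same stretch were not tested and were not found with TRAJ22. Counted together after these values were seen, the 6 families from TRAV17 to TRAV23 gave 8 TRAJ22 clonotypes where 99.98 would match, a ratio of 0.0800. This ratio pools the clonotypes of the 13 samples, describes families chosen as low, and was not tested. They took 0.253% of TRAJ22 clonotypes and 3.17% of those with other J genes. At the opposite end of the cluster, TRAV1 and TRAV2 gave 60 clonotypes where 33.0 would match, a ratio of 1.82. They took 1.90% of TRAJ22 clonotypes against 1.04%. This ratio also pools the samples and was not tested. TRAV1 alone had a log2 fold change of 0.50 (SE 0.247, adjusted p = 0.0930), and TRAV2, with 27 TRAJ22 clonotypes, did not pass the filter on low numbers. Tested without that filter TRAV2 was higher, at 1.33 (adjusted p = 0.00275), and by summed counts it was at -1.90 (adjusted p = 0.411). In 7 months replicate 5 the distal pair took 5.36% of TRAJ22 clonotypes, with 12 of the 60. In replicate 4 of that time point it took 0%, so the spread between samples was wide.

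**Figure D2:**
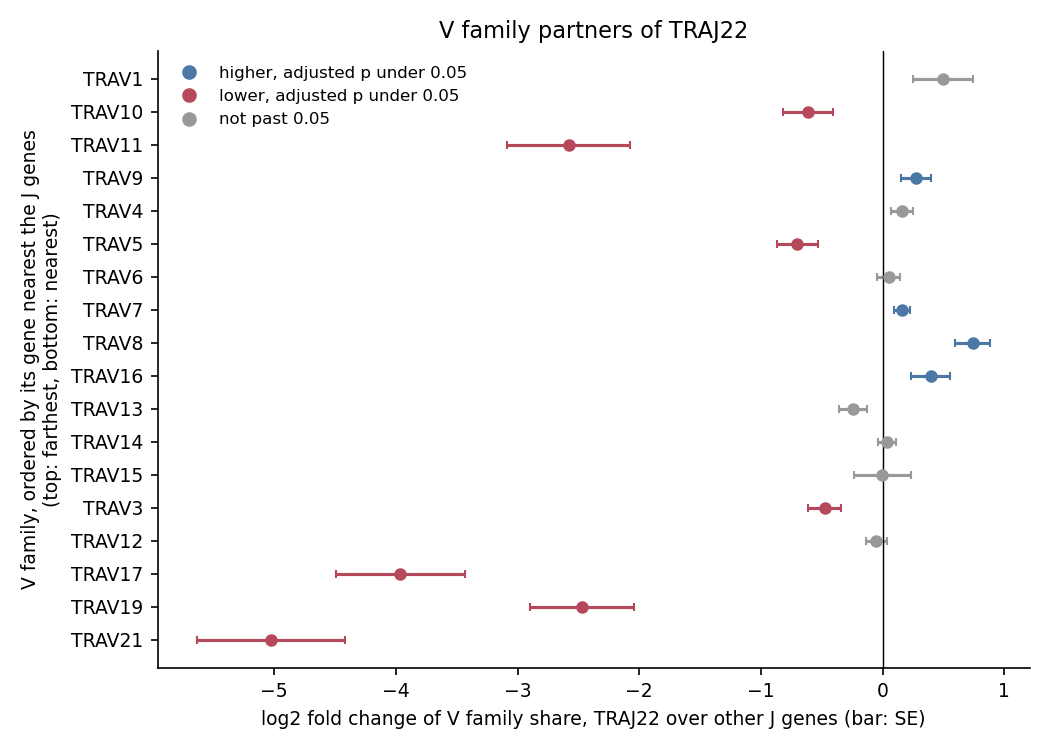
Log2 fold change of each V family's share among TRAJ22 clonotypes over its share with all other J genes (x axis), with families ordered from the farthest (top) to the nearest (bottom) of the J genes by their closest gene. Points are edgeR estimates and bars the SE. The 3 families at the bottom, TRAV17, TRAV19 and TRAV21, lie between -5.03 and -2.47, and TRAV8 is the highest at 0.74.

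The low use of J-proximal V families and the share of distal ones were found in the J genes around TRAJ22 too. The distal pair took 1.43% of TRAJ21, 1.58% of TRAJ23 and 2.41% of TRAJ18 clonotypes, against 1.90% of those with TRAJ22. The J-proximal families took 0.375% of TRAJ21, 0.254% of TRAJ23 and 0.230% of TRAJ18 clonotypes. Toward the V cluster the J-proximal share rose to 1.01% in TRAJ31, 4.94% in TRAJ42 and 33.4% in TRAJ58, the J gene nearest the V genes among those ranked. When only TRAJ21 and TRAJ23 served as the comparison, these families were too few to be tested. The measurement thus sets TRAJ22 apart from J genes near the V cluster and not from its neighbours.

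**Figure D3:**
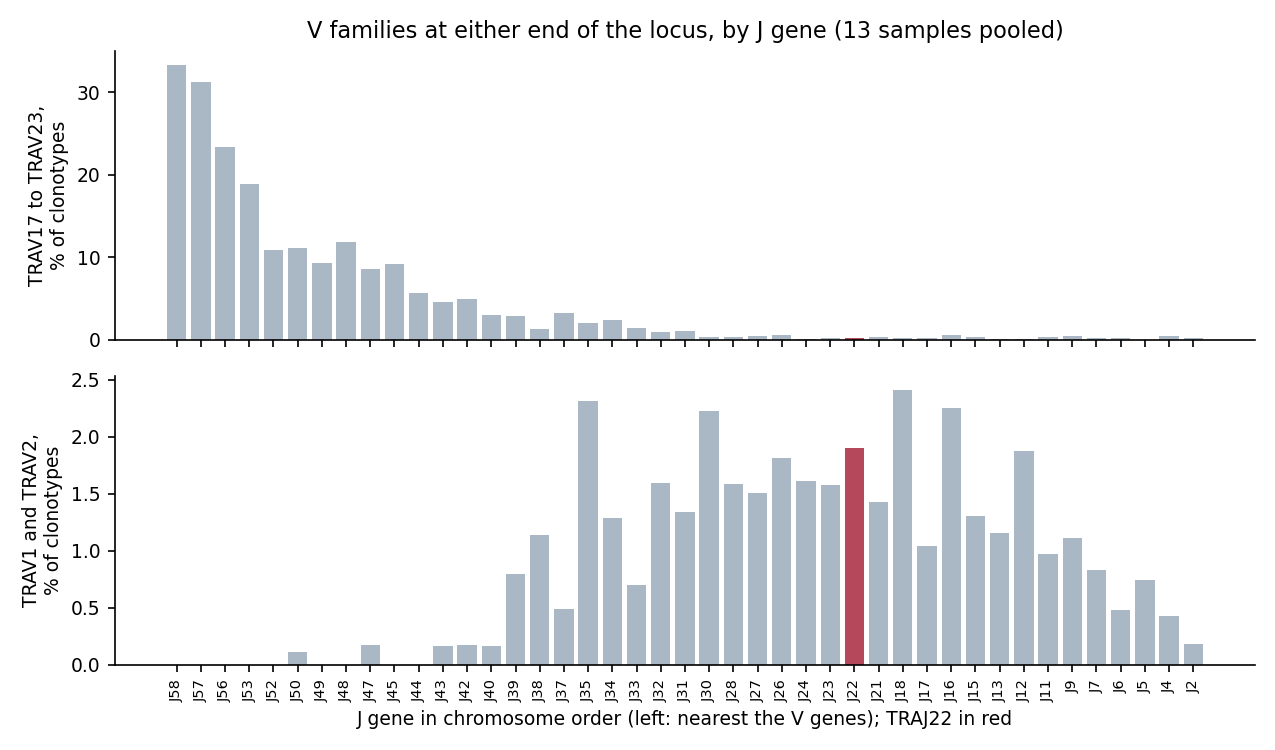
Percentage of functional clonotypes of each J gene that used a V family of the J-proximal end (TRAV17 to TRAV23, top) or of the distal end (TRAV1 and TRAV2, bottom), with all 13 samples pooled and J genes in chromosome order. TRAJ22 (red) stands at 0.253% and 1.90%, and the proximal share climbs to 33.4% at TRAJ58.

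TRAV11, whose join to TRAJ18 forms the invariant chain of natural killer T cells, was the other family with a large deficit. It gave 3 TRAJ22 clonotypes where 18.6 would match (ratio 0.161, 0.0332 to 0.470, log2 fold change -2.58, SE 0.507). It too passed the filter on low numbers only through its clonotypes with other J genes, so no p-value is given. Of its 446 clonotypes with other J genes, 29 used TRAJ18. TRAV11 took 0.567% of clonotypes with J genes other than TRAJ22 and TRAJ18, and 0.0949% with TRAJ22. The part of the TRAJ18 join in the difference was not tested. The remaining families called lower differed by less, TRAV5 (log2 fold change -0.70, adjusted p = 1.32e-04), TRAV10 (-0.61, adjusted p = 0.00832) and TRAV3 (-0.47, adjusted p = 0.00148). By summed counts TRAV3 was at -0.43 (adjusted p = 0.186).

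Of the 18 families tested, TRAV8 was raised most. Its share of TRAJ22 clonotypes was 4.60% ± 1.37 (SD, n = 13, lowest 2.18%, median 4.80%, highest 7.12%), against 2.79% ± 0.271 with other J genes (2.38% to 3.28%). It was higher with TRAJ22 in 11 of 13 samples, and the ranges overlapped. The log2 fold change was 0.74 (SE 0.144, adjusted p = 3.12e-06), and against TRAJ21 and TRAJ23 alone it was 0.46 (SE 0.175, adjusted p = 0.0426). The other families called higher had small differences that did not hold under every setting. TRAV16 had a log2 fold change of 0.39 (adjusted p = 0.0281) that missed the threshold without 1.5 months replicate 2 (0.0554) or 7 months replicate 5 (0.0770), and against TRAJ21 and TRAJ23 alone (0.23, adjusted p = 0.351). TRAV9, at 0.28 (adjusted p = 0.0412), missed it without any 1 of 1.5 months replicate 2 (0.0512), 3 months replicate 1 (0.112), 5 months replicate 1 (0.0627) or 7 months replicate 4 (0.0949). TRAV7, at 0.16 (adjusted p = 0.0281), missed it without 1.5 months replicate 2 (0.0648) or 7 months replicate 5 (0.0507). Without the filter on low numbers TRAV7 was at 0.0088 (adjusted p = 0.926), TRAV16 missed the threshold (0.216), and so did TRAV9 (0.404). TRAV16 and TRAV9 also missed it with at least 2 counts per clonotype (0.318 and 0.0843) and with DESeq2 (0.0504 and 0.0718). With the T-to-G variants left out, TRAV7 (adjusted p = 0.0580), TRAV9 (0.147) and TRAV16 (0.0508) all missed the threshold, while TRAV8 was at 0.73 (1.93e-06). The 9 families that passed there included a family not called in the main comparison. So did the 10 that passed with at least 2 counts per clonotype.

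Over the 43 J genes, the V family profiles most like that of TRAJ22 were those of TRAJ16, TRAJ21 and TRAJ9, with total variation distances of 0.0638, 0.0670 and 0.0725 between mean profiles of the 13 samples. The J genes whose clonotype shares moved most like that of TRAJ22 from sample to sample were TRAJ21, TRAJ50 and TRAJ56, with Pearson r of 0.524, 0.493 and 0.486 on a log2 scale over 13 samples. These shares come from the same libraries and sum to a fixed total, and r is given as a description.

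The TRAJ22 end of the junction was often left whole. Matching each CDR3 to the germline V and J segments placed 3045 of the 3161 clonotypes (96.3%). Of these 37.2% had lost no TRAJ22 base, and 14.2%, 13.1% and 14.9% had lost 1, 2 and 3 bases. Among the 316 out-of-frame clonotypes placed the same way, which cannot be selected for their receptor, 35.4% had lost none and 18.0%, 13.3% and 11.4% had lost 1, 2 and 3. TRAJ22 was at rank 4 of the 43 J genes for whole ends, after TRAJ38 (43.7%), TRAJ13 (41.7%) and TRAJ12 (39.0%). It was almost level with its neighbour TRAJ21 (36.6%) and ahead of TRAJ23 (21.6%).

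By this matching TRAJ22 had lost a mean of 2.18 ± 0.231 bases (SD, n = 13), against 3.31 ± 0.0625 for other J genes. The difference of -1.13 was negative in 13 of 13 samples (exact two-sided sign-flip permutation test, p = 2.44e-04, the smallest it can give, adjusted p = 4.07e-04 over 5 measures). The measure fixed for the main comparison, which took the longest deposited J part of each gene as its full length, gave the opposite, 13.6 ± 0.274 against 9.78 ± 0.0498 (n = 13, exact permutation adjusted p = 4.07e-04). The deposited J part was longer than the 29 germline bases in 37.3% of TRAJ22 clonotypes, and the longest seen in 5 or more clonotypes was 42 bases, so that measure did not count germline bases for TRAJ22.

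The share of whole TRAJ22 ends was higher in the late libraries. It was 32.1% and 34.7% at 1.5 months, and 35.9%, 36.9%, 35.4% and 36.6% at 3 months. At 5 months it was 36.0% and 40.3%, and at 7 months 40.7%, 39.4%, 40.2%, 43.2% and 38.6%. All 5 samples at 7 months were above all 6 at 1.5 and 3 months, but among clonotypes with at least 2 counts they overlapped, with 43.9% in 3 months replicate 4 and 41.6% to 45.6% at 7 months. Group means rose from 33.4% ± 1.83 (SD, n = 2) to 40.4% ± 1.74 (SD, n = 5), while for other J genes they were 21.95% ± 0.578 and 20.9% ± 0.535. This was noticed in the values and was not tested. Weighted by counts the groups overlapped, with 41.8% ± 0.526 at 1.5 months and 46.6% ± 7.85 at 7 months.

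The base next to an untrimmed TRAJ22 was mostly G. Where no TRAJ22 base was lost and at least 1 base had been inserted, that base was G in 711 of 980 functional clonotypes (72.6%), C in 12.2%, T in 10.9% and A in 4.29%. After the loss of 1, 2 or 3 bases, G preceded the J in 38.4%, 29.4% and 36.9%. Non-functional clonotypes gave 70.1% (75 of 107) with no base lost and 32.6%, 31.7% and 31.6% with 1 to 3 lost. G is the complement of the first TRAJ22 base, C, and the base that a P nucleotide, the short palindromic copy left when a segment end is opened without trimming, would add there. Whether these bases are P nucleotides was not tested. The genomic base before TRAJ22 could not be read here, so a germline G at that place could not be told from an inserted one. In the reading frame above, this G followed by CA of TRAJ22 makes the alanine codon of CDR3 sequences that end in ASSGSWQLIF.

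How many bases were inserted depended on how segment ends were drawn. By the deposited segment ends, TRAJ22 junctions held 1.95 ± 0.186 inserted bases (n = 13) against 2.16 ± 0.0542 with other J genes, a difference of -0.213 that was negative in 10 of 13 samples (exact permutation adjusted p = 0.00562). No inserted base was found in 35.8% ± 3.19 of TRAJ22 junctions against 30.7% ± 1.01, higher in 13 of 13 samples (n = 13, exact permutation adjusted p = 4.07e-04). Weighted by counts, the difference in inserted bases was -0.375, negative in 13 of 13 samples, and the share without any was 44.5% against 34.7%, higher in 11 of 13. The deposited V and J parts overlapped in 29.01% of TRAJ22 clonotypes and 21.4% of others. Matched to germline, TRAJ22 junctions held 3.31 ± 0.244 inserted bases against 3.15 ± 0.0521, a difference of 0.151 (n = 13, exact permutation adjusted p = 0.0535). The share without any insertion was then 11.2% ± 2.29 against 12.8% ± 0.480, lower in 11 of 13 samples (n = 13, exact permutation adjusted p = 0.0212). Fewer insertions in TRAJ22 junctions therefore could not be established.

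TRAJ22 CDR3 sequences were longer than those of the other J genes together. Their mean was 13.8 ± 0.0852 amino acids (n = 13, lowest 13.6, median 13.8, highest 14.0) against 13.5 ± 0.0242 (lowest 13.45, highest 13.53), and the sample ranges did not overlap. The difference of 0.280 was positive in 13 of 13 samples (exact permutation adjusted p = 4.07e-04), and against TRAJ21 and TRAJ23 alone it was 0.650, also positive in 13. A length of 14 was found in 45.6% of TRAJ22 clonotypes and 29.7% of others, and lengths of 12 or less were rarer, with 7.72% against 14.6% at 12.

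Most TRAJ22 clonotypes had the amino-acid end that the germline segment encodes, including some whose J bases were trimmed and recoded. The CDR3 ended in SSGSWQLIF in 2015 clonotypes (63.7%) and, with an alanine before it, in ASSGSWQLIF in 915 (28.9%), whereas 1 functional clonotype of all other J genes ended in SSGSWQLIF. The SSGSWQLIF share of TRAJ22 clonotypes lay between 59.2% and 67.7% in the 13 samples, with a median of 65.3%. As a share of all functional counts these clonotypes took 3.43% ± 0.379 (SD, n = 13, lowest 2.81%, highest 4.30%).

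The 3161 clonotypes translated to 1469 distinct CDR3 amino-acid sequences, of which 1019 (69.4%) occurred in 1 sample, 59 (4.02%) in 7 or more and 8 in all 13. The share in 7 or more samples was 2.46% for other J genes together, 3.75% for TRAJ23 and 4.59% for TRAJ31. For other J genes together 71.2% occurred in 1 sample and 57 of 40034 sequences in all 13, so TRAJ22 held 8 of 65 such sequences. TRAJ12 held 9 and TRAJ31 held 7. The 65 became 58 without clonotypes 100 times higher in another library, and 55 with at least 2 counts per clonotype. Of the 59 TRAJ22 sequences in 7 or more samples, 49 ended in SSGSWQLIF and 25 of these in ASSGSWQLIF. By ending, 9.92% of the 252 sequences with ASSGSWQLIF were in 7 or more samples, 5.48% of the 438 with another residue before SSGSWQLIF, 2.39% of the 418 with SGSWQLIF alone, none of the 105 with GSWQLIF alone and none of the 256 with any other ending. Of the 268 clonotypes with another ending, 117 had G for T at the last base of CDR3, which changes the final phenylalanine, and their median count was 1.

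Sharing between samples went with few inserted bases. Of 131 TRAJ22 nucleotide sequences with no inserted base by germline matching, 53.4% were found in 2 or more samples, against 37.4% with 1, 29.7% with 2, 21.9% with 3, 14.6% with 4 and 5.28% with 5. Where V calls of a sequence differed between samples, the smallest number was taken, and with the largest the shares were 48.7% with none, 37.4% with 1 and 6.05% with 5. Among the 24 nucleotide sequences in 7 or more samples, 10 had no inserted base, none had more than 2, and 20 had an untrimmed TRAJ22. By the largest number over V calls, 7 had no inserted base, 6 had 3 and 1 had 4.

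**Figure D4:**
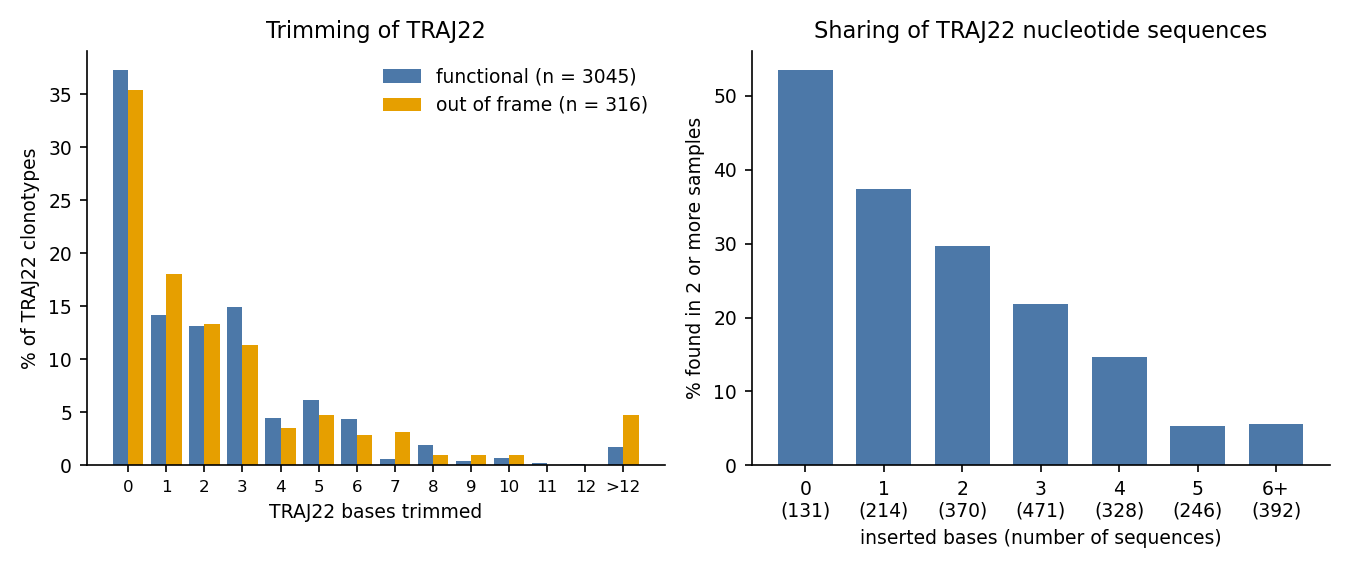
Left, number of TRAJ22 bases lost at the junction (x axis) as a percentage of functional (blue) and out-of-frame (orange) TRAJ22 clonotypes matched to germline. Right, percentage of TRAJ22 nucleotide sequences found in 2 or more samples by number of inserted bases, with the number of sequences in brackets, which falls from 53.4% at 0 to 5.28% at 5.

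The TRAJ22 sequence with the highest mean among those in all 13 samples was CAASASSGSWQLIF, at 0.246% ± 0.0452 of functional counts (SD, n = 13). It took 0.297% and 0.280% at 1.5 months, and 0.274%, 0.243%, 0.204% and 0.257% at 3 months. At 5 months it took 0.288% and 0.186%, and at 7 months 0.257%, 0.250%, 0.182%, 0.302% and 0.173%. The highest and lowest samples, both at 7 months, differed 1.75-fold. Its coefficient of variation of 18.4% was the lowest of the 65 sequences found in all 13 samples, the next being 47.7% for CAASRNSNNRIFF, and this evenness was one of the values that chose TRAJ22.

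This sequence was not 1 clone. It was built by 17 nucleotide sequences in 53 clonotypes, 2 to 5 per sample. The 3 found in the most samples are shown to set the germline-encoded bases against the inserted ones, with bases that neither TRAJ22 nor the best-matching V of its calls explains in capitals.
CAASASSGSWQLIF, in 13 samples: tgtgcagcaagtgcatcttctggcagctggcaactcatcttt
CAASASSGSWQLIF, in 9 samples: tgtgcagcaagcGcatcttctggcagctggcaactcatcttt
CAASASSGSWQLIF, in 8 samples: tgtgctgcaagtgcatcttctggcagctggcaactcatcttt
The first was present in all 13 samples and carried 64.2% of the sequence's share. It equals the germline end of TRAV14, tgtgcagcaagtg, followed by the untrimmed CDR3 part of TRAJ22, with nothing lost and nothing added. All 9 TRAV14 genes of the annotation end in those 13 bases, and the V call was TRAV14 in 12 samples and TRAV7D-2 in 1.5 months replicate 2. Its own share ran from 0.0611% to 0.253% with a coefficient of variation of 32.8%, so the amino-acid sequence was more even than its main nucleotide sequence. In 3 months replicate 2 the first sequence made only 25.1% of the CDR3 and in 3 months replicate 3 it made 90.7%. The sequence in 8 samples had a TRAV5 end and likewise needed no inserted base, and what is inserted in the one in 9 samples depends on its V call. With TRAV14, called in 7 samples, its V match ends after 11 bases and 2 bases are unexplained, and with TRAV7, called in 2, it ends after 12 and 1 is unexplained.

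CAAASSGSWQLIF, the next by mean share, was far less even, at 0.141% ± 0.0890 (SD, n = 13, lowest 0.0584%, median 0.103%, highest 0.307%). It was above 0.2% in 1.5 months replicate 2, 3 months replicate 4 and 7 months replicates 4 and 5, and near 0.1% or below in most others. Its nucleotide sequence found in all 13 samples held 1 base that neither segment explains, the G before TRAJ22.
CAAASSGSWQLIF: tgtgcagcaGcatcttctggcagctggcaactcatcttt
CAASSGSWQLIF followed at 0.135% ± 0.0746 (SD, n = 13, lowest 0.0248%, median 0.122%, highest 0.263%). Its leading nucleotide sequence, again in all 13 samples, needed no inserted base and carried 66.3% of its share.
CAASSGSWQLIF: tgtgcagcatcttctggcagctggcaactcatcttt

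The other 5 sequences in all 13 samples had lower means. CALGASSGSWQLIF, 98.0% of whose counts used TRAV6, had a mean of 0.128% that 1 sample set: it took 0.733% in 7 months replicate 4 and 0.0355% to 0.142% in the 12 others. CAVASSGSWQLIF averaged 0.0659%, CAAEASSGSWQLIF, 98.3% of it with TRAV4, 0.0615%, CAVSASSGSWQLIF 0.0563% and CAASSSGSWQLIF 0.0398%. Coefficients of variation of these 8 ran from 18.4% to 144%, with a median of 67.7%, against a median of 77.1% for the 57 sequences of other J genes. The 7 after the first were each at 55.1% or more. Together the 8 took 0.874% ± 0.322 of functional counts (SD, n = 13) and 18.0% ± 4.35 of TRAJ22 counts.

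**Figure D5:**
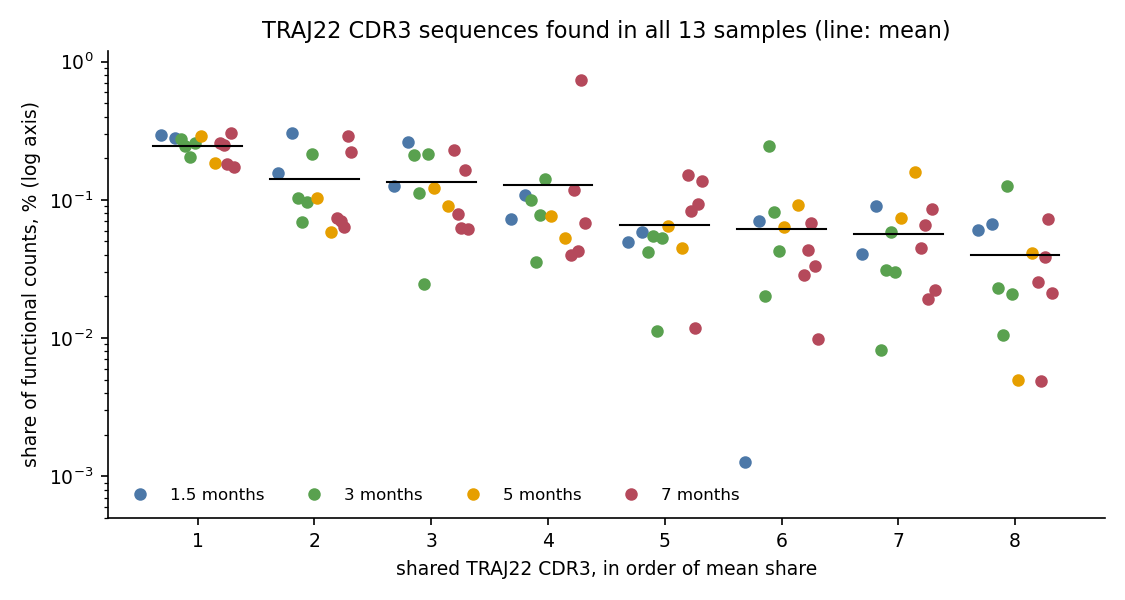
Share of functional counts (log axis) of the 8 TRAJ22 CDR3 sequences found in all 13 samples, in order of mean share as in the text. Points are samples coloured by time after 4-OHT and lines are means over the 13 samples. The first stays between 0.173% and 0.302%, and the sixth spans 0.00126% to 0.245%.

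TRAJ22 clonotypes were larger than those of the other J genes together. The mean count per TRAJ22 clonotype ran from 82.9 to 176 over the samples with a median of 119, against 68.7 to 154 with a median of 91.9 for other J genes. On a log2 scale the within-sample difference was 0.26 ± 0.231 (SD, n = 13), or 1.199-fold, positive in 12 of 13 samples (exact permutation adjusted p = 9.16e-04). Median counts gave 0.28 and the same direction in 13 of 13 samples. Against TRAJ21 and TRAJ23 alone, of which TRAJ21 held many of the small T-to-G variants, the difference was 0.55, or 1.46-fold, positive in 13 of 13 samples. Without the T-to-G variants, which were small and mostly of other J genes, the difference was 0.16, or 1.12-fold, positive in 9 of 13 samples (exact permutation adjusted p = 0.0198). Pooled over samples without those variants, the mean count was 116.3 for TRAJ22 and higher for TRAJ12 (130.4), TRAJ17 (120.4) and TRAJ37 (120.3). Of TRAJ22 clonotypes 19.3% had a count of 1, against 17.4% of others.

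Each library held 3 to 8 TRAJ22 clonotypes above 0.1% of functional counts. The 10 largest took 20.1% to 30.7% of TRAJ22 counts in the 6 samples at 1.5 and 3 months, 31.4% and 30.2% at 5 months, and 24.6%, 33.6%, 49.5%, 60.3% and 33.2% at 7 months. The largest clonotype of each time point is shown with bases that neither germline segment explains in capitals.
1.5 months replicate 2, TRAV7D-2: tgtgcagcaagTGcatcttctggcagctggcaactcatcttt
3 months replicate 3, TRAV7-4: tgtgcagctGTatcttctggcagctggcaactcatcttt
5 months replicate 1, TRAV6D-7: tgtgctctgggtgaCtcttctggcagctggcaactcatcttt
7 months replicate 4, TRAV14D-3-DV8: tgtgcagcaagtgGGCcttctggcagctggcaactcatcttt
The first, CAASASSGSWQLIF at 0.253% (Wilson 95% interval 0.240% to 0.266%), is the TRAV14 germline join described above under another V call, which is why TG is in capitals here. The second, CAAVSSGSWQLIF, reached 0.336% (0.322% to 0.351%) and was in no other sample. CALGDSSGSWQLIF followed with 0.268% (0.254% to 0.282%) and was also in 5 other samples, at 156 counts or fewer. The last, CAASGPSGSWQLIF, was the largest TRAJ22 clonotype of all, with 9093 counts or 1.91% (1.87% to 1.95%), the third largest clonotype of any J gene in its library. It was also in 4 other samples, at 193 counts or fewer. It had lost 3 TRAJ22 bases and held 3 inserted ones. Intervals and floors cover counting error only, and whether counts are reads or molecules is not given in the sources used here.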

How the data were processed

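TCRα cDNA from sorted rescued Treg cells was amplified by 5′ RACE and sequenced on a MiSeq. The authors aligned reads to mouse V, D and J segments and assembled clonotypes with MiXCR, and then corrected them with VDJtools, which removes a clonotype that differs little from a much larger one. For each clonotype the authors deposited a raw count per sample, its share as a fraction, which was not used, and the positions at which V and J parts end, which were. The submitters' processing notes name the build GRCm38, with no role given. Coordinates here are those of the GENCODE M21 annotation of that build. Members and lists were chosen with earlier results of these data known.

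Non-functional clonotypes were set aside, as in the study, and used as a comparison only. The number of clonotypes per V family or J gene was compared by the quasi-likelihood test of edgeR 4.0.16 (R 4.3.3) after filterByExpr and TMM scaling, p-values being adjusted by Benjamini-Hochberg, with the sample as a block for V families and for functional against non-functional clonotypes, and with time point as the term in 1 model over 13 samples for 5 against 3 months. V families were used because duplicated V genes are near-identical and calls can be split between them. Within-sample measures used the exact sign-flip test over 8192 arrangements, adjusted over 5 measures. Inserted bases were those between the deposited ends. Germline matching used GENCODE M21 sequences (98 of 104 V names matched), at least 8 J and 6 V bases, and let the J match run across 1 mismatch followed by 5 matching bases.

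Named J genes were TRAJ22, its neighbours and the 3 most alike by V profile and by share. Named V families were the 3 most used and the 3 highest and 3 lowest called, named CDR3 sequences those in all 13 samples, and named clonotypes the largest of each time point. Other names were added after values were seen. Simulated data with 1.5-fold changes gave a recovery of 61.2% for V families, 92.5% for functional against non-functional and 77.5% for 5 against 3 months, with 7.55%, 3.9% and 13.9% of calls false, over 20 simulations of 4 changed features among 24, 46 and 44. Their spread beyond counting error was set to 1 fixed value, not estimated from these data. Only features with over 100 clonotypes were changed, so these rates need not hold for the real tests. Alternatives were DESeq2 1.42.0, library totals only, no filter, at least 2 counts, summed counts, a replicate block, clonotypes 100 times higher elsewhere removed, neighbouring J genes only, single V genes, out-of-frame only, weighting by counts, and each sample left out. Germline matching, the removal of T-to-G variants and the largest number of inserted bases over V calls were added after the data were seen. Python 3.11.15 with pandas 2.3.3, numpy 2.4.6, scipy 1.17.1 and matplotlib 3.10.9 was used.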

Additional observations from a re-analysis of the deposited data

Results flagged for a closer look

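In 34 groups of 4 or 5 samples, 3 single samples lay far from the rest of their group by Dixon's criterion, which chance alone meets in about 1 group of 20. The share of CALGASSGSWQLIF was 0.733% in 7 months replicate 4, the library that also held the largest TRAJ22 clonotype. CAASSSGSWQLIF took 0.126% in 3 months replicate 3. The percentage of TRAJ22 clonotypes that ended in SSGSWQLIF was 67.7% in 3 months replicate 2, the highest of the 13 samples, against 59.2% to 60.1% in the other samples at 3 months.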

How the results depend on the processing

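The number of V families called with TRAJ22, 11 of 18, became 5 of 11 against TRAJ21 and TRAJ23 only, 22 of 64 for single V genes, and 9 to 11 under the other settings. With 1 sample left out it ran from 8 (without 1.5 months replicate 2) to 13. TRAV8 kept its call wherever it was tested. The 11 include TRAV11, TRAV17, TRAV19 and TRAV21, which passed the filter on low numbers only through other J genes. Their calls under other settings are therefore not read as support. The fitted size of the lowest varied. TRAV21 (-5.03) ran from -8.17 to -4.79 with 1 sample left out and was -3.65 with DESeq2. With summed counts TRAV21 was -11.84, TRAV17 was -10.17, TRAV19 was -9.02 and TRAV11 was -8.49. TRAV14 turned to -0.00072 with at least 2 counts and -0.12 without the filter. With 1 sample left out, TRAV12 ran from -0.085 to 0.10, TRAV14 from 0.029 to 0.18 and TRAV7 from 0.14 to 0.30. With summed counts TRAV14 was 0.56, TRAV9 was -0.081, TRAV16 was -0.11, and 5 against 3 months was 0.0014. That comparison ran from -0.13 to -0.05 with 1 sample left out. Its replicate block gave -0.14 (adjusted p = 0.976), with 0 calls as before. The 2 same-numbered pairs had deviations correlated at 0.168 and 0.230, which does not establish pairing.

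Functional against non-functional use was 0.31 with library totals and 0.37 with summed counts (edgeR adjusted p = 0.131). Against out-of-frame clonotypes only it was 0.19 (edgeR adjusted p = 0.0971), and with 1 sample left out it ran from 0.07 to 0.16. With germline matching, inserted bases turned to 0.151, junctions without them to -1.64 percentage points and bases trimmed to -1.13. Germline matching was not repeated with samples left out. With 1 sample left out, the measures from deposited ends ran from -0.245 to -0.189 for inserted bases, 4.65 to 5.48 for junctions without them and 3.77 to 3.86 for bases trimmed, CDR3 length from 0.263 to 0.291 and log2 clone size from 0.22 to 0.28, every adjusted p under 0.05. The cause of changes other than those of the J ends was not tested. V families with few TRAJ22 clonotypes had wide counting intervals or were left out by the filter.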
